A study of Mus musculus with 18 samples.

Results

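The genes described are 10 transcription factors and regulators of the eosinophil lineage, taken by symbol from the 22708 genes of the deposited table: *Spi1*, *Gata1*, *Zfpm1*, *Gata2*, *Cebpa*, *Cebpb*, *Cebpe*, *Trib1*, *Id2* and *Xbp1*. All 10 were found and all 10 passed the filter on low values in every comparison. They were chosen for what they are known to do and not for their values in these samples, although earlier results of the data were known when the set was made.

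The cells were small intestinal eosinophils, sorted as CD11b+MHC-II-SiglecF+SSChi cells after enrichment with beads against CD11b, and 18 samples were sequenced as bulk RNA. The strain label of all samples is C57/BL6, and the study used mice of both sexes aged 6 to 14 wk. Each of 3 labelled genotypes, wildtype (WT), *Ahr*-/- and *Ahrr*-/-, has 6 samples, from 3 females (F1 to F3) and 3 males (M1 to M3). *Ahr* encodes the aryl hydrocarbon receptor, a transcription factor activated by its ligands, and *Ahrr* encodes the repressor of that receptor. Mice of the *Ahr*-/- and WT groups came from separate litters and cages, so effects of litter and housing cannot be told apart from genotype, and the origin of the *Ahrr*-/- mice is not given in the sources used here. The values are the deposited variance-stabilized expression on a log2 scale, on which 0 counts give the lowest value, and differences of genes with few counts are smaller on this scale than the log2 ratio of their counts. Turned back to counts, the libraries held between 3842977 and 8149200 counts in WT, between 6581818 and 10284124 in those labelled *Ahr*-/-, and between 8788867 and 12046933 in those labelled *Ahrr*-/-, so low values are least precise in WT.

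Eosinophils arise from bone marrow progenitors in which PU.1 (encoded by *Spi1*), the C/EBP factors and GATA-1 act together, and the balance between these factors, with the cofactor FOG-1 (encoded by *Zfpm1*), separates eosinophils from other myeloid cells. C/EBPα acts in early myeloid progenitors, C/EBPε in the maturation of granulocytes, and the pseudokinase TRIB1 promotes the degradation of C/EBPα. ID2 lacks a DNA-binding domain and holds E proteins away from DNA, and XBP1 drives the secretory programme that developing eosinophils need for making granule proteins.

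The labels were first checked against the targeted genes. The median of *Ahr* was 13.76 in WT, 14.55 in the libraries labelled *Ahr*-/- and 13.51 in those labelled *Ahrr*-/-. *Ahrr* lay between 9.95 and 10.93 (median 10.37) in the libraries labelled *Ahrr*-/-, against 9.79 to 10.39 (median 10.12) in WT. Neither gene was thus lower where it is labelled as deleted, but whole-gene counts cannot check a knockout while the deleted part is unknown, and genotypes are given as labelled. Of 6 genes of the AHR pathway, 5 were tested, and 4 of them (*Ahrr*, *Cyp1b1*, *Tiparp* and *Nqo1*) fell in the libraries labelled *Ahr*-/- against WT (limma, adjusted p below 0.05), with *Ahrr* itself at 5.79 or below. None of the 5 was called between the libraries labelled *Ahrr*-/- and WT. The surface and enzyme markers of eosinophils were high: over the 18 libraries *Ccr3* averaged 13.51, *Siglecf* 11.03, *Il5ra* 11.05 and *Alox15* 14.15. The granule genes *Epx* (mean 5.79), *Prg3* (5.38) and *Ear1* (5.51) lay near the value of a count of 0, *Ear6* was at 0 in 16 libraries, and *Prg2* was higher (mean 7.87, range 6.48 to 9.95). All 12 eosinophil markers were in the table, and *Alox15* had the highest mean value of them, not corrected for gene length.

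Transcripts of other cell types differed between libraries. All 14 of the epithelial markers examined were in the table and had counts in every library. *Muc2*, the mucin of goblet cells, had the highest mean value (11.47), which is not corrected for gene length. Their mean value per library was 10.14 in WT F1 and 8.56, 9.05, 8.94, 9.05 and 9.56 in the other WT libraries (F2, F3, M1, M2 and M3). It was between 8.26 and 9.15 in the libraries labelled *Ahr*-/-. In those labelled *Ahrr*-/- it was 10.45 in F3, 10.39 in M1 and 10.70 in M3, and 8.76, 8.75 and 9.78 in F1, F2 and M2. The 4 libraries with a mean above 10, 3 of them in 1 genotype, are called high in epithelial markers below. This cut falls within a gradient, since *Ahrr*-/- M2 (9.78) and WT M3 (9.56) lay between them and the rest. The first principal component of the 500 most variable genes held 49.45% of the variance, and its lowest scores were those of *Ahrr*-/- M3, M1 and F3 (-28.39, -23.28 and -18.70), followed by WT F1 and M3 (-12.26 and -12.24) and *Ahrr*-/- M2 (-11.33). The fits were therefore repeated without these 4 libraries and with the epithelial mean as a covariate, both chosen after seeing the data.

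All 12 lists of cell type markers were compared as means over 6 against 6 libraries with exact two-sided permutation tests, and 0 of the 36 tests passed an adjusted p of 0.05, while 10 had an unadjusted exact p below 0.05. The lowest exact p that 6 against 6 libraries can give is 0.002165. Over 36 tests a single list at that value cannot pass alone, so failing to pass does not show that a list was unchanged. The eosinophil list was 9.57 in the libraries labelled *Ahr*-/-, 9.24 in WT and 9.14 in those labelled *Ahrr*-/- (exact permutation p = 0.002165 and adjusted p = 0.07794 for the first against the second). The first 2 groups were separate, at 9.44 to 9.75 and 8.99 to 9.43. *Prg2*, 1 of the 12 genes of this list, was higher by 2.30 in the libraries labelled *Ahr*-/- than in WT. Mast cell markers averaged 6.07, 5.96 and 6.24 in the same order, and of 10 in the table *Mcpt1*, *Mcpt4*, *Cma1* and *Tpsb2* were at 0 in 9, 13, 12 and 15 of the 18 libraries, whereas *Kit* (mean 7.37) was at 0 in none and *Cpa3* (mean 5.83) in 1. This list bears on *Gata2*, which mast cells also use, and its level came mostly from *Hdc* (mean 11.27). Basophil markers averaged between 5.16 and 5.33, T cell markers between 5.32 and 5.48 and erythroid markers between 5.42 and 5.50. Plasma and B cell markers averaged 5.97, 6.18 and 6.64, led by *Jchain* (mean 9.46). Neutrophil and precursor markers averaged 6.92, 6.71 and 7.25, led by *Retnlg*, with *Ly6g* at 0 in 13 libraries and *Elane* at 0 in 17. Macrophage and dendritic cell markers averaged 7.35, 7.36 and 7.90, fibroblast and endothelial markers 6.40, 6.52 and 7.14, and dividing cell markers 7.79, 8.25 and 8.42. Pancreatic acinar markers averaged 5.47, 6.69 and 5.75. Between the libraries labelled *Ahr*-/- and WT they differed by -1.22 (exact permutation p = 0.01732, adjusted p = 0.1002). Dividing cell markers differed there by -0.455 (exact permutation p = 0.02381, adjusted p = 0.1071). The part of these lists in differences of single genes was not tested.

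Levels were compared between genes as normalized counts per kb of exon (Ensembl annotation of GRCm38). In WT *Spi1* was the most abundant, with a median of 869 per kb (range 633 to 981 over 6 libraries), and *Trib1* overlapped with it at 807 (556 to 1016). *Cebpe* followed at 426 (311 to 533) and *Cebpb* at 272 (221 to 356), whose ranges overlapped. *Xbp1* was at 152 (105 to 162). *Id2* at 58.5, *Gata1* at 55.2 and *Gata2* at 37.8 overlapped with each other, and *Cebpa* (9.51, 6.07 to 26.6) and *Zfpm1* (9.49, 5.11 to 20.0) had the lowest medians and overlapped with each other and with *Gata2* (18.2 to 79.1). Thus the genes for PU.1, TRIB1 and the maturation factor C/EBPε were the abundant ones, and *Cebpa* was scarce in these mature tissue cells. In the libraries labelled *Ahr*-/- *Id2* had a median of 233 per kb (134 to 284), above that of *Xbp1* at 143 (101 to 154), and its range overlapped with those of *Xbp1* and *Cebpb*. *Cebpa* (8.57) and *Zfpm1* (8.91) again had the lowest medians.

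**Figure D1:**
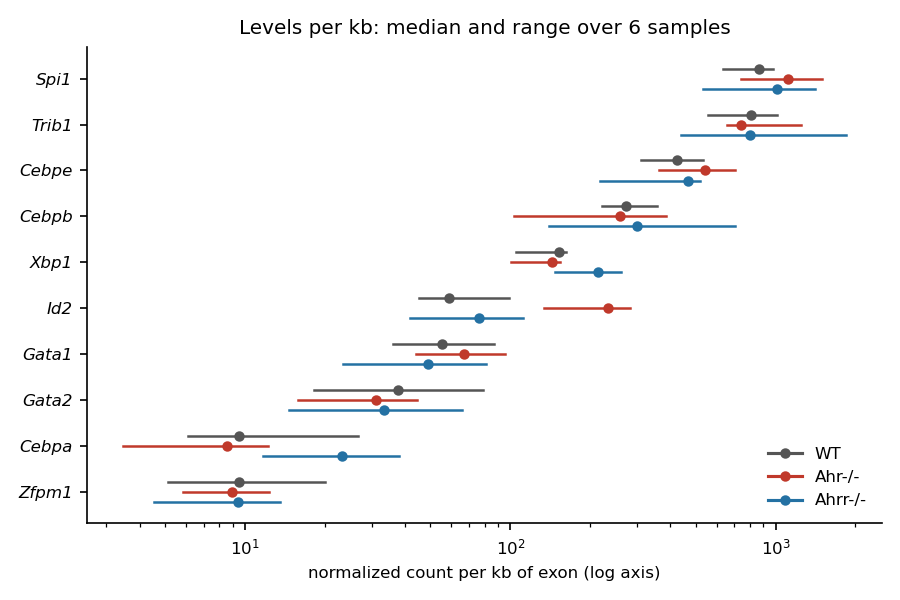
Normalized count per kb of exon on a log axis for each of the 10 genes, with the median (point) and the range (line) over 6 libraries of each genotype. *Spi1* and *Trib1* were the most abundant, *Cebpa* and *Zfpm1* the least, and *Id2* moved from a WT median of 58.5 to 233 in the libraries labelled *Ahr*-/-.

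Some limits of gene counts apply to single members. The counts do not separate spliced from unspliced *Xbp1* or the protein forms made from the *Cebpb* transcript. The strandedness of the libraries is not stated in the sources used here, and *Cebpa* overlaps the antisense gene *Gm45091* and *Cebpb* overlaps *Tmem189* on the opposite strand (mean 8.26), so reads of these pairs cannot be told apart. *Zfpm1* overlaps *Gm20388* on its own strand. In sorted bulk samples, fewer cells of a type and less RNA per cell cannot be told apart.

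Across the 10 members, 1 was called between the libraries labelled *Ahr*-/- and WT, where 1003 of 11346 tested genes (8.84%) were called by limma at an adjusted p below 0.05. Without *Ahr*-/- F1, the count over all genes was 623. The median difference of the members was 0.00, like that of all tested genes. Between the libraries labelled *Ahrr*-/- and WT, 0 members and 9 of 11546 genes (0.0779%) were called by limma, 853 genes had an unadjusted p below 0.05, and 4 genes and 0 members were called by voom on the recovered counts. No member had separate groups there, against 53 genes (0.459%). This count of 9 was 25 without *Ahrr*-/- F1, 5 without *Ahrr*-/- F3, and 4 without any one of *Ahrr*-/- F2, M2 and M3 and WT F1, F2, M2 and M3. Between the libraries labelled *Ahr*-/- and *Ahrr*-/-, 3 members were called, against 1708 of 11474 genes (14.9%). That background moved with single libraries, to 2574 without *Ahrr*-/- F1 and to between 818 and 1001 without any one of *Ahr*-/- F1, F2, M1, M2 and M3 and *Ahrr*-/- F3 and M3. It was 626 without the 4 libraries high in epithelial markers and 328 with the epithelial mean as covariate. Both comparisons with WT share the WT libraries, both with *Ahr*-/- share the libraries labelled *Ahr*-/-, and both with *Ahrr*-/- share those labelled *Ahrr*-/-. The values of these comparisons thus stand side by side and are no support for each other.

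**Figure D2:**
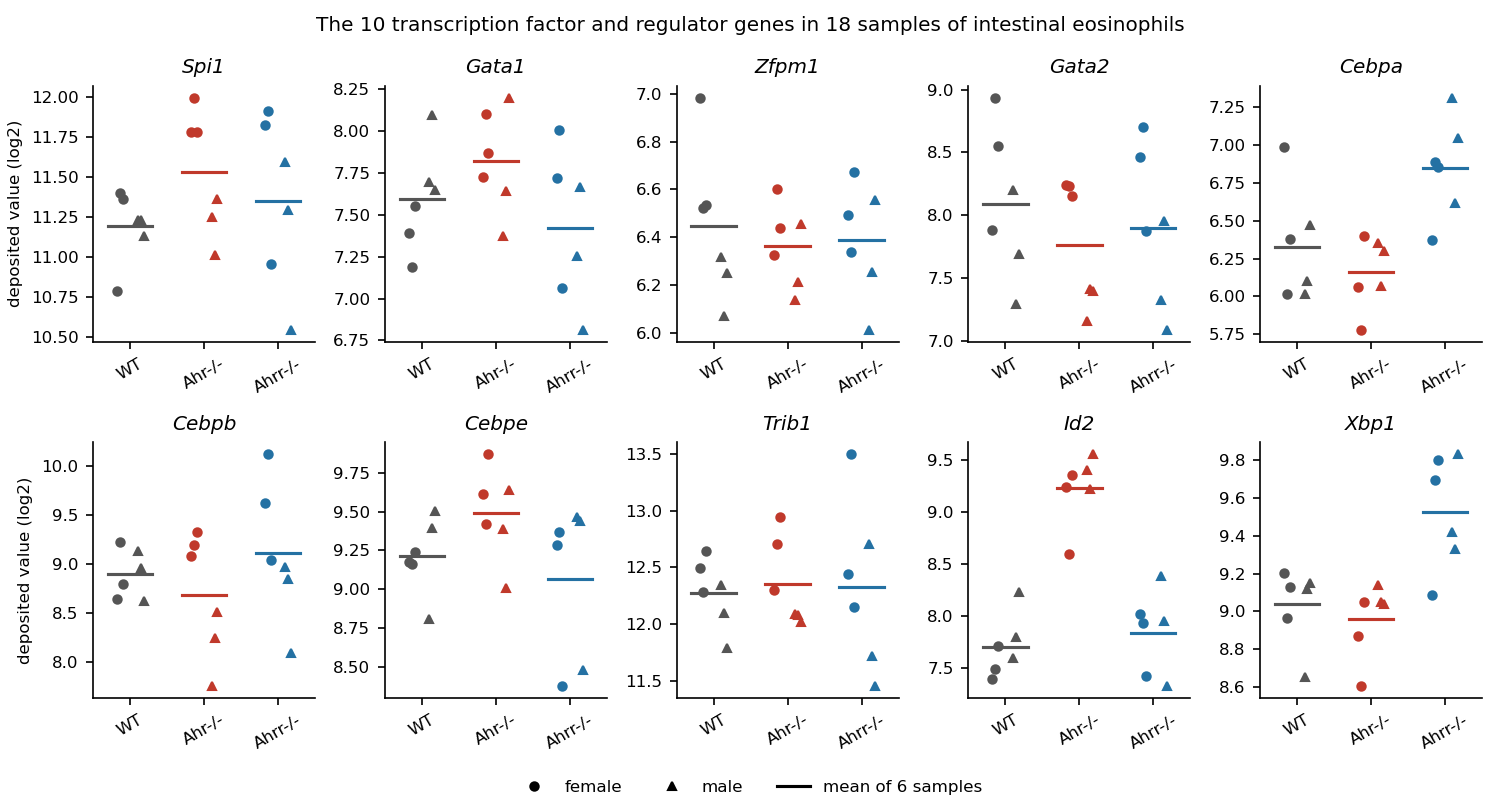
Deposited values (log2) of the 10 genes in each of 18 libraries, by labelled genotype, with females as circles, males as triangles and the mean of 6 libraries as a line. *Id2* lies higher in all 6 libraries labelled *Ahr*-/- (8.60 to 9.56) than in any other library (at most 8.38), whereas the other 9 genes overlap between genotypes.

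*Id2* was the member called in the libraries labelled *Ahr*-/- against WT. Its lowest, median and highest values were 7.40, 7.66 and 8.24 in WT, 8.60, 9.30 and 9.56 in the libraries labelled *Ahr*-/-, and 7.33, 7.95 and 8.38 in those labelled *Ahrr*-/-. Every library labelled *Ahr*-/- was above every other library, also *Ahr*-/- F2, the lowest of them. Groups that do not overlap were found for 512 tested genes (4.51%) against WT and for 529 (4.61%) against *Ahrr*-/-, where chance gives 0.216%, and *Id2* was the 1 member among them in each. The log2 difference from WT was 1.52 (standard error 0.14, adjusted p = 3.52e-06 from limma), with mean normalized counts of 550 against 153, a ratio of 3.59. Against the libraries labelled *Ahrr*-/- it was 1.39 (standard error 0.19, adjusted p = 0.000257 from limma), and those differed from WT by 0.13 (standard error 0.19, adjusted p = 0.832). By sex the means were 7.54 in WT females and 9.07 in females labelled *Ahr*-/-, and 7.88 and 9.40 in males. The interaction of genotype and sex was -0.01 (standard error 0.30, adjusted p = 0.996 from limma). With the epithelial mean as covariate the differences were 1.58 (adjusted p = 7.92e-07 from limma) and 1.17 (adjusted p = 0.0111), without the 4 libraries high in epithelial markers the second was 1.23 (adjusted p = 0.000335), and over the alternatives run the adjusted p was at most 4.98e-05 against WT and at most 0.0111 against *Ahrr*-/-.

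The *Id2* promoter (Entrez 15902) is shown because *Id2* is the member that changed where the receptor gene is labelled as deleted, beside both promoters of *Gata2* (Entrez 14461), the member called between the sexes. The sequences are from RefSeq, build GRCm38.p6, 250 bases before to 50 after the start of transcription. The *Id2* window is chr12:25096043-25096342 on the minus strand, and those of *Gata2* are chr6:88193641-88193940 and chr6:88198414-88198713 on the plus strand. Capitals mark matches on either strand to GCGTG, the core of the motif bound by AHR and its partner (reverse complement CACGC).
Id2: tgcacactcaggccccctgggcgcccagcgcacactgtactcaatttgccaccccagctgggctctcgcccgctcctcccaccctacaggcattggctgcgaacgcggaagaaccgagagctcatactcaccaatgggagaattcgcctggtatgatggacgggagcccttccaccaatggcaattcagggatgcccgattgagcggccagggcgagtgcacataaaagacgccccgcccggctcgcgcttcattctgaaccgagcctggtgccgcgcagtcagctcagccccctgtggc
Gata2, first promoter: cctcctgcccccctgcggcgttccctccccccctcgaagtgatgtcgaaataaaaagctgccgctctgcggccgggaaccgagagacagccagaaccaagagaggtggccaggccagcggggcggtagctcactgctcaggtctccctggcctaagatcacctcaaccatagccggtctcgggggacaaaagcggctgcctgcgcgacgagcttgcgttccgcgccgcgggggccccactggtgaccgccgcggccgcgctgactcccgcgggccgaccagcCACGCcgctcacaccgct
Gata2, second promoter: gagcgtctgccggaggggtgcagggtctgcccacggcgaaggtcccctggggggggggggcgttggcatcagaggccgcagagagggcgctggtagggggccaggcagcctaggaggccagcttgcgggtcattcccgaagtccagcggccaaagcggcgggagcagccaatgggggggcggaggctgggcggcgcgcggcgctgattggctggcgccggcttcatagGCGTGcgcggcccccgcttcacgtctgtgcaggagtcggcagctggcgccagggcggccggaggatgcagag
The *Id2* window has no match to these letters, and each *Gata2* window has 1. Over all 32851 promoters of this length 32.4% hold GCGTG, and of the 8 promoters of members found (7 of 10 genes; *Spi1*, *Cebpe* and *Trib1* had none) 4 hold it, those of *Gata2*, *Zfpm1* and *Cebpb*. None of the 8 held GATAA (25.4% of all promoters) or the C/EBP palindrome TTGCGCAA (0.183%), and their GC content was between 51.0% and 80.7%, against a median of 52.7% over all promoters. A match is a description of the letters and not of binding.

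*Id2* lies on the same chromosome as *Ahr*. *Id2* is at chr12:25093799-25096092 and *Ahr* at chr12:35497979-35534989, 10.4 Mb apart, and of 31 tested genes between them 7 (22.6%) were called between the libraries labelled *Ahr*-/- and WT, against 40 of 385 (10.4%) on the whole chromosome. The next tested gene on the side away from *Ahr*, *Kidins220*, 30.6 kb from *Id2*, was also higher in the libraries labelled *Ahr*-/- than in WT, by 1.16 (standard error 0.13, adjusted p = 3.27e-05 from limma). *Rrm2* (-0.22, adjusted p = 0.577 from limma) and *Klf11* (0.23, adjusted p = 0.226), the tested genes beyond it, were not called. On the side toward *Ahr* the next tested gene, *Rnf144a*, 1211 kb away, was lower in the libraries labelled *Ahr*-/- (-0.58, adjusted p = 0.0264 from limma), and *Rsad2* (-0.54, adjusted p = 0.141) and *Cmpk2* (-0.33, adjusted p = 0.244) were not called. The part that position plays in the *Id2* difference was not tested.

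None of the genes for PU.1, GATA-1 and its cofactor FOG-1 was called in any comparison of genotypes. *Spi1* had a median of 11.23 in WT, 11.57 in the libraries labelled *Ahr*-/- and 11.44 in those labelled *Ahrr*-/-, and the 3 groups overlapped. Its log2 difference of the libraries labelled *Ahr*-/- from WT was 0.34 (95% confidence interval 0.04 to 0.64, adjusted p = 0.162 from limma). It was 0.17 with the epithelial covariate (adjusted p = 0.386 from limma), and between 0.21 and 0.42 when 1 library was left out. For *Gata1* the same difference was 0.22 (-0.12 to 0.57, adjusted p = 0.437 from limma), and for *Zfpm1* -0.08 (-0.35 to 0.19, adjusted p = 0.734). When 1 library was left out, *Gata1* lay between 0.15 and 0.34 and *Zfpm1* between -0.14 and -0.000627. On the deposited scale the confidence intervals reach 0.64 for *Spi1*, 0.57 for *Gata1* and -0.35 for *Zfpm1*. The limit for *Zfpm1* holds on that scale only, where its standard error was 0.13. Its difference was -0.15 (standard error 0.28) with log2(count + 1) and -0.28 (standard error 0.29) with voom. *Gata1* was lowest in *Ahrr*-/- M3 (6.81) and F3 (7.06), and *Spi1* in *Ahrr*-/- M3 (10.55) and WT F1 (10.79), which are among the 4 libraries high in epithelial markers. Against *Ahrr*-/- *Gata1* differed by 0.40 (adjusted p = 0.165 from limma), and by 0.05 without those libraries.

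Of the C/EBP family, *Cebpa*, the early factor, had lowest, median and highest values of 6.01, 6.24 and 6.98 in WT, 5.78, 6.18 and 6.40 in the libraries labelled *Ahr*-/-, and 6.37, 6.87 and 7.31 in those labelled *Ahrr*-/-. The highest WT value was that of F1, and the only *Ahr*-/- library above the lowest *Ahrr*-/- library was F3. The difference of *Ahr*-/- from *Ahrr*-/- was -0.69 (standard error 0.15, adjusted p = 0.0114 from limma), with mean normalized counts of 22.3 and 62.0. Neither group was called against WT, with -0.17 (adjusted p = 0.597 from limma) for *Ahr*-/- and 0.52 (standard error 0.20, adjusted p = 0.617) for *Ahrr*-/-. The 3 highest *Cebpa* values were those of *Ahrr*-/- M1 and M3 and WT F1, all high in epithelial markers, followed by *Ahrr*-/- F2, which is low in them. Over the alternatives fixed with the design, the adjusted p of the *Cebpa* difference between *Ahr*-/- and *Ahrr*-/- lay between 0.00542 and 0.0326 (limma). Without the 4 libraries high in epithelial markers that difference was -0.48 (adjusted p = 0.126 from limma), and with the epithelial mean as covariate it was -0.43 (adjusted p = 0.34). The call was thus lost under both, but *Ahrr*-/- F3, M1 and M3 were also high in fibroblast and endothelial markers (7.71, 7.48 and 7.98, against 6.29 to 6.70 in F1, F2 and M2), a list that differed between *Ahr*-/- and *Ahrr*-/- by -0.739 (exact permutation p = 0.01948, adjusted p = 0.1002). WT F1 was low in that list (6.35). Plasma and B cell markers (-0.675, exact permutation p = 0.008658, adjusted p = 0.09738) and dividing cell markers (-0.633, exact permutation p = 0.01732, adjusted p = 0.1002) differed in the same direction, and these signals cannot be told apart here.

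*Cebpe*, the maturation factor, lay between 8.81 and 9.50 in WT, between 9.01 and 9.87 in the libraries labelled *Ahr*-/- and between 8.38 and 9.47 in those labelled *Ahrr*-/-, and was not called in any comparison. Its difference of *Ahr*-/- from WT was 0.28 (-0.03 to 0.58, adjusted p = 0.258 from limma). *Cebpb* was the most variable of the 3 in the libraries labelled *Ahrr*-/-, from 8.09 in M3 to 10.13 in F2. It differed between *Ahr*-/- and *Ahrr*-/- by -0.43 (standard error 0.20, adjusted p = 0.14 from limma). That value was called with sample weights (-0.53, adjusted p = 0.038 from limma) and without the 4 libraries high in epithelial markers (-0.68, adjusted p = 0.0254), and with the covariate it was -0.82 (adjusted p = 0.0688), with adjusted p between 0.0254 and 0.396 over the alternatives run. *Trib1*, whose product targets C/EBPα, differed by 0.08 between *Ahr*-/- and WT (-0.20 to 0.36, adjusted p = 0.762 from limma), and in single libraries ranged from 11.45 in *Ahrr*-/- M3 to 13.50 in *Ahrr*-/- F2. *Ahrr*-/- F2 was also the highest library in the neutrophil and precursor list (8.33, against 6.93 to 7.19 in the others labelled *Ahrr*-/-). In the libraries labelled *Ahr*-/- F3 was highest in *Trib1* (12.94), *Cebpb* (9.33) and that list (7.97), and in WT F3 was highest in *Trib1* (12.65) and the list (7.15) but not in *Cebpb*. The part of these markers in the *Trib1* and *Cebpb* values was not tested.

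*Xbp1* had lowest, median and highest values of 8.66, 9.12 and 9.20 in WT, 8.61, 9.05 and 9.14 in the libraries labelled *Ahr*-/-, and 9.09, 9.56 and 9.83 in those labelled *Ahrr*-/-. Of the libraries labelled *Ahrr*-/-, F1 was the 1 that overlapped with the other groups. The difference of *Ahr*-/- from *Ahrr*-/- was -0.57 (standard error 0.14, adjusted p = 0.0203 from limma), and the adjusted p was 0.0528 without *Ahr*-/- F2 (-0.50). Against WT the differences were -0.08 (adjusted p = 0.738 from limma) for *Ahr*-/- and 0.49 (standard error 0.15, adjusted p = 0.519) for *Ahrr*-/-. As for *Cebpa*, the call was lost without the 4 libraries (-0.43, adjusted p = 0.12 from limma) and with the epithelial covariate (-0.32, adjusted p = 0.471), and over the alternatives run the adjusted p lay between 0.00714 and 0.471. Goblet and plasma cells also use XBP1, and the plasma and B cell list, of which 9 of 12 genes were in the table, differed between *Ahr*-/- and *Ahrr*-/- by -0.675 as a mean (exact permutation p = 0.008658, adjusted p = 0.09738). Its part in the *Xbp1* difference was not tested.

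**Figure D3:**
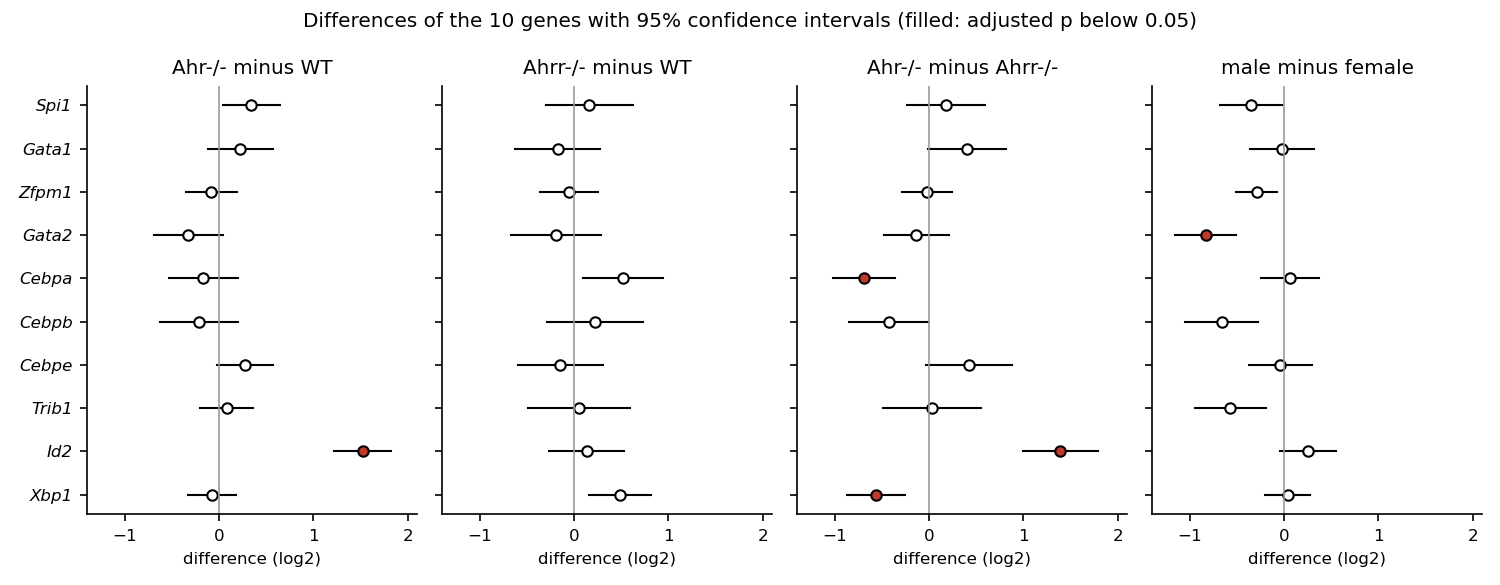
Log2 differences of the 10 genes in 4 comparisons, with 95% confidence intervals from limma; filled points have an adjusted p below 0.05. *Id2* is far to the right against both other groups (1.52 and 1.39), *Cebpa* (-0.69) and *Xbp1* (-0.57) are called between *Ahr*-/- and *Ahrr*-/- alone, and *Gata2* (-0.83) between the sexes.

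The relation of the members to the epithelial signal was measured within genotype and sex, as the correlation over 18 libraries of each member with the epithelial mean after the mean of the same genotype and sex was removed (10 relations, added after seeing the data). *Cebpa* was higher where it was higher, with Pearson r = 0.725 (permutation p = 0.01162, adjusted p = 0.03873) and Spearman rho = 0.697 (permutation p = 0.01614, adjusted p = 0.04035), and r = 0.709 without the 2 libraries farthest from the median. *Xbp1* had r = 0.661 (permutation p = 0.02941, adjusted p = 0.05882) and rho = 0.697 (permutation p = 0.01198, adjusted p = 0.03993), and r = 0.64 without those 2. *Gata2* went the other way, with r = -0.788 (permutation p = 0.00649, adjusted p = 0.03873), rho = -0.829 (permutation p = 0.00319, adjusted p = 0.0319) and r = -0.665 without the 2 farthest libraries. *Spi1* did so too, with r = -0.794 (permutation p = 0.01, adjusted p = 0.03873), rho = -0.759 (permutation p = 0.01012, adjusted p = 0.03993) and r = -0.632 without them. For *Cebpb* r was -0.684 (permutation p = 0.01753, adjusted p = 0.04382) with rho = -0.626 (permutation p = 0.02831, adjusted p = 0.05662) and r = -0.562 without them. *Id2* was not called, at r = -0.207 (permutation p = 0.465, adjusted p = 0.5167) and rho = -0.098 (permutation p = 0.7385, adjusted p = 0.7385), with r = 0.0512 without them. *Gata1*, *Zfpm1*, *Cebpe* and *Trib1* had adjusted p values of 0.06173, 0.1545, 0.2632 and 0.5443 from the permutation test of r.

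**Figure D4:**
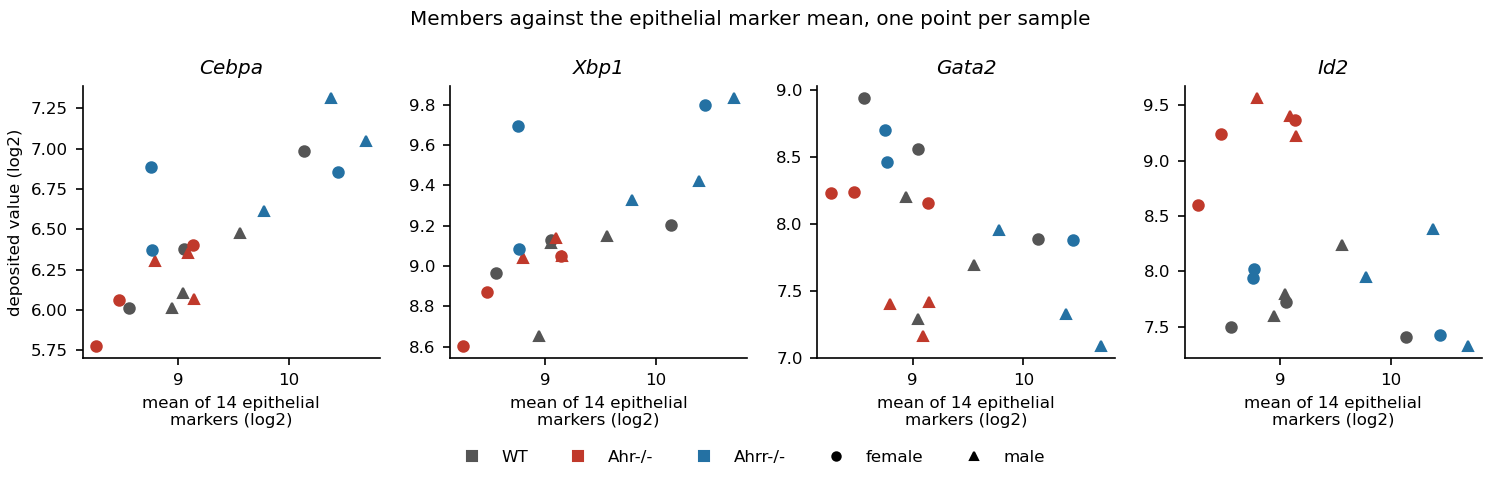
Deposited values (log2) of *Cebpa*, *Xbp1*, *Gata2* and *Id2* against the mean of 14 epithelial markers (log2) in 18 libraries, coloured by labelled genotype, with females as circles and males as triangles. The 3 highest *Cebpa* and the 2 highest *Xbp1* values lie at an epithelial mean above 10, but *Ahrr*-/- F2 is high in both (6.89 and 9.69) at a mean of 8.75, and WT F1 is at 9.20 in *Xbp1* at a mean of 10.14. The 6 libraries labelled *Ahr*-/- are highest in *Id2* at an epithelial mean of 8.26 to 9.15.

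Among the members, *Gata2*, a factor of early progenitors and mast cells, differed by sex. In WT the females were at 7.88, 8.55 and 8.94 and the males at 7.29, 7.69 and 8.20. In the libraries labelled *Ahr*-/- the females were at 8.15, 8.23 and 8.24 and the males at 7.16, 7.40 and 7.42, and in those labelled *Ahrr*-/- the females were at 7.88, 8.46 and 8.70 and the males at 7.09, 7.33 and 7.96. The sexes were separate in the libraries labelled *Ahr*-/- and overlapped in the others by 1 female library each, WT F1 and *Ahrr*-/- F3, both high in epithelial markers. The mast cell list was likewise separate by sex in the libraries labelled *Ahr*-/- (means of 6.21 to 6.35 in females and 5.81 to 5.96 in males) and overlapped in WT (5.84 to 6.23 and 5.76 to 6.01) and in those labelled *Ahrr*-/- (6.21 to 6.43 and 5.93 to 6.39), and its part in the *Gata2* difference was not tested. Some other lists were separate by sex in 1 genotype and overlapped in the others, and no list was tested by sex. In the libraries labelled *Ahr*-/- the macrophage and dendritic cell list was lower in all females (6.42 to 7.00) than in all males (7.61 to 8.18), and the eosinophil list (9.63 to 9.75 against 9.44 to 9.46) and the neutrophil and precursor list (6.75 to 7.97 against 6.64 to 6.70) were higher in females, as was the basophil list in WT (5.12 to 5.57 against at most 5.09). In 1 fit over all 18 libraries with genotype as covariate, chosen after seeing the data, males were lower, at -0.83 for male minus female (standard error 0.16, adjusted p = 0.00798 from limma), with mean normalized counts of 128 in males and 271 in females. The value was -0.88 (adjusted p = 0.000903 from limma) without the 4 libraries and -0.64 (adjusted p = 0.00688) with the epithelial covariate, and over the alternatives run the adjusted p lay between 0.000903 and 0.024. *Gata2* was 1 of 351 genes of 11468 called for sex (3.06%), of which 69 were higher in males. That count was 595 without WT M1, 733 without WT F1, 577 without *Ahrr*-/- F3, and between 142 and 211 without any one of WT F2 and M3, *Ahr*-/- F1, F2, M1, M2 and M3, and *Ahrr*-/- F1, F2 and M3. By genotype *Gata2* was not called, at -0.33 in *Ahr*-/- against WT (-0.69 to 0.04, adjusted p = 0.268 from limma), and was called there with the epithelial covariate (-0.52, adjusted p = 0.0299), with adjusted p between 0.0299 and 0.507 over the alternatives run. Against *Ahrr*-/- it was -0.14 (adjusted p = 0.595 from limma), -0.47 (adjusted p = 0.0433) without the 4 libraries high in epithelial markers and -0.54 (adjusted p = 0.107) with the covariate.

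*Cebpb* and *Trib1* were lower in males without passing the threshold, at -0.66 (standard error 0.19, adjusted p = 0.0559 from limma) and -0.57 (standard error 0.18, adjusted p = 0.0851). *Cebpb* passed it when WT M1 (-0.74, adjusted p = 0.0217 from limma), WT F1 (-0.75, adjusted p = 0.0187), WT F3 (-0.72, adjusted p = 0.0474) or *Ahrr*-/- F3 (-0.72, adjusted p = 0.0344) was left out, and with all libraries under the stricter minimum mean (-0.66, adjusted p = 0.0443). *Trib1* passed it without *Ahrr*-/- M1 (-0.67, adjusted p = 0.0381 from limma) or *Ahrr*-/- F3 (-0.64, adjusted p = 0.0468). Without the 4 libraries high in epithelial markers 4 members were called for sex, *Gata2*, *Cebpb* (-0.71, adjusted p = 0.0137 from limma), *Trib1* (-0.65, adjusted p = 0.0231) and *Spi1* (-0.47, adjusted p = 0.00785), all lower in males, and 1049 genes were called in all. With the epithelial mean as covariate 1 member, *Gata2*, and 240 genes were called, with *Cebpb* at -0.45 (adjusted p = 0.115 from limma), *Trib1* at -0.48 (adjusted p = 0.159) and *Spi1* at -0.16 (adjusted p = 0.546). Over the alternatives run the adjusted p lay between 0.0137 and 0.124 for *Cebpb*, between 0.0231 and 0.165 for *Trib1* and between 0.00785 and 0.546 for *Spi1*.

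**Figure D5:**
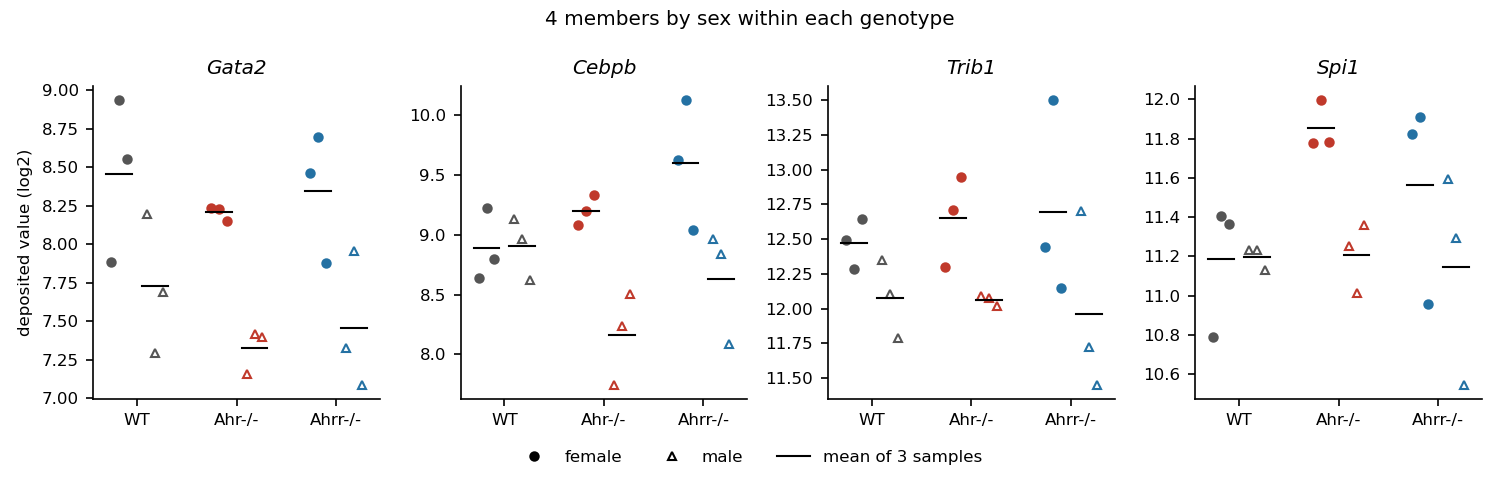
Deposited values (log2) of *Gata2*, *Cebpb*, *Trib1* and *Spi1* by sex within each labelled genotype, with filled circles for females, open triangles for males and a line at the mean of 3 libraries. *Gata2* is lower in males in each genotype by its mean, and in *Cebpb* the sexes overlap in WT but not in the libraries labelled *Ahr*-/- or *Ahrr*-/-.

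Whether genotype acted differently in the sexes was tested by the interaction. It was called for 0 genes by limma in *Ahr*-/- against WT and 0 in *Ahrr*-/- against WT, while 533 and 544 genes had an unadjusted p below 0.05 and voom called 0 genes in each. *Cebpb* had the largest value of the members, with the *Ahr*-/- minus WT difference lower by 1.06 in males than in females (interaction -1.06, standard error 0.29, unadjusted p = 0.0025 and adjusted p = 0.954 from limma), and it did not pass. All 3 females labelled *Ahr*-/- lay above all 3 males for *Cebpb* (9.08 to 9.33 against 7.75 to 8.50), and so did the females labelled *Ahrr*-/- (9.04 to 10.13 against 8.09 to 8.97), whereas WT females (8.64 to 9.23) and males (8.62 to 9.13) overlapped. The *Cebpb* interaction for *Ahrr*-/- against WT was -0.98 (standard error 0.41, unadjusted p = 0.0326 and adjusted p = 0.727 from limma).

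The members were also compared with each other within genotype and sex. Of 45 pairs, 1 passed an adjusted p of 0.05 by Pearson's r and 0 by Spearman's rho, and 11 had an unadjusted permutation p below 0.05 for r. *Cebpe* and *Id2* varied together over the 18 libraries, with r = 0.857 (permutation p = 8e-05, adjusted p = 0.0036), rho = 0.777 (permutation p = 0.0012, adjusted p = 0.054) and r = 0.782 without the 2 libraries farthest from the median. Thus libraries with more *Id2* than others of their genotype and sex also had more *Cebpe*, of which the *Ahrr*-/- libraries M3 and F3 were low for both. Other pairs were not called, among them *Spi1* and *Cebpb* (r = 0.785, permutation p = 0.01128, adjusted p = 0.1692; rho = 0.67, permutation p = 0.02915, adjusted p = 0.164; r = 0.606 without the 2 farthest).

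The genes most alike each called member were taken over all 18 libraries from 11468 tested genes by Pearson's r, as a description that includes genotype and depth. For *Id2* they were *Pglyrp2* (r = 0.940), the LIM-only cofactor gene *Lmo4* (0.924) and *Cd47* (0.916), each with its highest mean in the libraries labelled *Ahr*-/-. For *Cebpa* they were *Tubb4b* (0.933), *Chchd10* (0.928) and *Tuba1b* (0.926), and for *Xbp1* *Dnase1l3* (0.903), *Plxna1* (0.890) and *Txndc5* (0.886), a disulfide isomerase of the endoplasmic reticulum. For *Gata2* they were *Rnf125* (0.928), *Uhrf1bp1* (0.920) and the glucose transporter gene *Slc2a1* (0.901), each lower in males by its mean.

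Gene lists related to the members were counted in the same fits. Over all tested genes limma called 8.84% between *Ahr*-/- and WT, 0.0779% between *Ahrr*-/- and WT, 14.9% between *Ahr*-/- and *Ahrr*-/-, and 3.06% between the sexes. Of 16 genes of the same families 9 were tested, and 0 were called by limma between *Ahr*-/- and WT or between *Ahrr*-/- and WT (medians -0.26 and 0.32, against 0.00 and 0.01 over all tested genes). Between *Ahr*-/- and *Ahrr*-/-, 4 fell in *Ahr*-/-: *Gata6* (-0.89, adjusted p = 0.00759 from limma), *Gata5* (-0.73), *Gata4* (-0.72) and the stress factor gene *Ddit3* (-0.44), with a list median of -0.72 against 0.00 over all. *Gata4*, *Gata5* and *Gata6* are factors of the gut epithelium. Without the 4 libraries high in epithelial markers *Ddit3* alone was called (-0.53, adjusted p = 0.0485 from limma), and with the covariate 0 of the 9, with *Gata6* at -0.39 (adjusted p = 0.368) and *Ddit3* at -0.56 (adjusted p = 0.0816).

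Of 41 other transcription factors of blood lineages, 37 were tested between *Ahr*-/- and WT, 6 rose and 4 fell (limma, adjusted p below 0.05), and the list median was 0.04. Over all tested genes 8.84% were called there. *Ikzf2*, encoding Helios, rose by 1.39 (standard error 0.15, adjusted p = 1.96e-05 from limma), *Lmo4* by 1.14, *Myc* by 0.99, *Hhex* by 0.74 and *Satb1* by 0.50. *Runx1* fell by 0.88 (standard error 0.14, adjusted p = 0.000886 from limma), *Runx2* by 0.88, *Ikzf3*, encoding Aiolos, by 0.68 and *Myb* by 0.56. The *Satb1* call was lost without WT F1, the 1 of the 4 libraries in this comparison (0.44, adjusted p = 0.072 from limma), and with the epithelial covariate (0.36, adjusted p = 0.0832). In all, 4 rose and 5 fell without WT F1, and 5 rose and 6 fell with the covariate. Between *Ahrr*-/- and WT 0 of 38 were called by limma, and between *Ahr*-/- and *Ahrr*-/- 6 rose and 5 fell. In that comparison *Ikzf2* (1.68), *Myc* (1.31), *Hhex* (1.19) and *Lmo4* (1.12) were higher in *Ahr*-/- and *Runx1* (-0.76) and *Runx2* (-0.67) lower, and all 6 were also called without the 4 libraries and with the epithelial covariate. *Satb1* (0.79), *Maf* (-0.87), *Irf8* (-0.82) and *Mecom* (-0.67) were not called in either alternative, and in all 4 rose and 4 fell without the 4 libraries, and 4 rose and 3 fell with the covariate.

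Of 24 partners and regulators of the members, *Chd4*, a chromatin remodeller that works with FOG-1, fell in *Ahr*-/- against WT by 0.35 (standard error 0.09, adjusted p = 0.026 from limma), and the list median was -0.07. Between *Ahrr*-/- and WT 0 were called by limma (median -0.01). Between *Ahr*-/- and *Ahrr*-/- the E protein gene *Tcf4*, whose product ID2 can bind, was lower in *Ahr*-/- (-0.71, adjusted p = 0.0257 from limma), and was not called without the 4 libraries (-0.43, adjusted p = 0.187) or with the covariate (-0.19, adjusted p = 0.768). Between the sexes *Jun* (-0.77, adjusted p = 0.0166 from limma) and *Atf4* (-0.48, adjusted p = 0.0345) were lower in males, as was *Ets2* (-0.69, adjusted p = 0.0277) among the blood-lineage factors. All 3 were also called without the 4 libraries (-0.74, -0.50 and -0.75 in the same order) and with the epithelial covariate (-0.78, -0.46 and -0.49). Among the blood-lineage factors *Ets2* was the 1 called for sex with all libraries, with or without the covariate, whereas without the 4 libraries 1 was higher and 6 were lower in males.

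Of 41 tested genes of the unfolded protein response downstream of XBP1 and ATF6, 1 fell in *Ahr*-/- against WT, *Spcs3* of the signal peptidase (-0.79, standard error 0.09, adjusted p = 3.54e-05 from limma), and 0 were called by limma between *Ahrr*-/- and WT, with list medians of -0.12 and 0.14. Over all tested genes 8.84% and 0.0779% were called there. Between *Ahr*-/- and *Ahrr*-/- 4 were lower in *Ahr*-/-, *Spcs3* (-0.73), *Ssr3* (-0.63), *Spcs1* (-0.54) and *Sec61a1* (-0.50), with a list median of -0.25. *Spcs3* alone was called without the 4 libraries (-0.82, adjusted p = 0.00787 from limma) and with the epithelial covariate (-1.05, adjusted p = 0.0169).

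Eosinophil genes known as targets of GATA-1, PU.1 or C/EBP factors were listed as well. Of these 19 genes, the filter kept 14, and in *Ahr*-/- against WT 5 rose and 2 fell, with a list median of 0.24, where 8.84% of all tested genes were called. The progenitor marker gene *Cd34* rose by 2.40 (standard error 0.16, adjusted p = 9.43e-08 from limma), *Prg2*, encoding major basic protein, by 2.30 (standard error 0.17, adjusted p = 3.47e-07), and *Csf3r*, *Alox15* and *Csf1r* by 0.59, 0.58 and 0.49. *Csf2rb2*, encoding the receptor chain specific to IL-3, fell, with a difference of -1.78, as did *Csf2rb*, encoding the chain shared by IL-5, IL-3 and GM-CSF, with -1.45 (standard error 0.12, adjusted p = 1.39e-06 from limma). Between *Ahrr*-/- and WT 1 rose, the G-CSF receptor gene *Csf3r* (1.18, standard error 0.20, adjusted p = 0.0426 from limma), which was also called without the 4 libraries (1.39, adjusted p = 0.0137 from limma) and with the epithelial covariate (1.42, adjusted p = 6.19e-05). *Csf3r* is also a gene of neutrophils, and the neutrophil and precursor list differed between *Ahrr*-/- and WT by 0.546 (exact permutation p = 0.01082, adjusted p = 0.09738), whose part was not tested. Between *Ahr*-/- and *Ahrr*-/- 5 were higher in *Ahr*-/- and 3 lower, of which *Cd34* (2.33), *Prg2* (2.07), *Csf2rb2* (-1.72) and *Csf2rb* (-1.28) were called under both epithelial alternatives as well, whereas *Alox15* and *Il5ra* were called under neither, and *Siglecf* and *Csf3r* without the 4 libraries but not with the covariate. With the covariate *Siglecf* was at 0.33 (adjusted p = 0.544 from limma), against 0.72 in the fit without it, and *Csf3r* at -0.81 (adjusted p = 0.0828), against -0.59.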

How the data were processed

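RNA of sorted small intestinal eosinophils was sequenced in bulk in 18 samples. The values deposited by the authors are on a log2 scale, after the variance stabilization of DESeq2. The submitters' processing notes name STAR 2.5.2, RSEM 1.3.0, R 4.0.3, DESeq2, GRCm38 and mm10. Values were used as deposited. Inverting the transformation returned whole counts everywhere (100%, tolerance 0.0001), with totals of 3842977 to 12046933 per sample. Of the 22708 genes, 22685 matched RefSeq by Entrez ID.

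Samples were grouped by the labelled genotype. Genes with a mean at least 1 above the lowest value were fitted with limma 3.58.1 in R 4.3.3, with a mean-variance trend, group and sex in the model, over the 12 samples of both groups, and called at a Benjamini-Hochberg adjusted p below 0.05. Nothing states that the replicates share a litter or batch, and p-values measure the spread between these samples. Correlations used 100000 permutations within genotype and sex, and means of 12 marker lists used exact permutation tests. Genes named are the members, *Ahr* and *Ahrr*, up to 5 called genes per direction in each of 6 gene lists, and the 3 most alike genes of each called member; other genes were named after their values were seen. The members and lists were chosen with earlier results of these data known. Steps were tested on simulated data. Alternatives were no or a stricter minimum mean (3), median centring, quantile normalization, no trend, sample weights, log2(count + 1), log2(count + 8), voom, no sex term, all 18 samples, the replicate block and leaving out each sample. The sex comparison and the epithelial alternatives were added after seeing the data. The sex comparison was not run with sample weights, log2(count + 8) or the replicate block. Tables and figures came from Python 3.11.15 (matplotlib 3.10.9, scipy 1.17.1, pandas 2.3.3, numpy 2.4.6).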

Additional observations from a re-analysis of the deposited data

Results flagged for a closer look

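Of 30 groups of 6 libraries (10 members in 3 genotypes), 1 held a library far from the others by Dixon's ratio of gap to range, and chance gives about 1 in 20. *Id2* in *Ahr*-/- F2 was 8.60, and the other 5 libraries labelled *Ahr*-/- lay between 9.22 and 9.56 (ratio 0.645). It was still above every library of the other genotypes.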

How the results depend on the processing

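Under the alternatives fixed with the design, 236 of 236 member differences of *Ahr*-/- from WT kept their direction and side of the threshold, as did 229 of 235 for *Ahrr*-/- with WT and 222 of 236 for *Ahr*-/- with *Ahrr*-/-. Of those added after seeing the data 7 of 10, 14 of 20 and 7 of 20 did, and 235 of 266 between the sexes. The stricter minimum mean left out *Gata1*, *Gata2*, *Zfpm1* and *Cebpa* in every comparison, and *Id2* between *Ahrr*-/- and WT, so they have no value there. The cause was not tested. WT was sequenced least deeply, which limits low genes such as *Cebpa* and *Zfpm1*. In the paragraphs below, a member difference given as a single value had the opposite sign to the main fit. A range of member differences given there holds both signs. No member was called where its sign changed.

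For *Ahr*-/- against WT, 553 genes were called with all 18 samples in the fit and 623 to 1124 when 1 library was left out (members 1 to 1). With the epithelial covariate 1165 genes and 2 members, *Id2* and *Gata2*, were called. *Cebpa* (0.079, adjusted p = 0.765 from limma) and *Xbp1* (0.038, adjusted p = 0.877) changed sign in that fit and were not called.

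For *Ahrr*-/- against WT, the genes called were 4 with no minimum mean, 5 with the stricter one, 4 with median centring, 5 with quantile normalization, 18 with sample weights, 4 with log2(count + 1), 4 with voom, 14 with all 18 samples, 16 with the covariate, and 4 to 25 when 1 library was left out. Sample weights gave *Zfpm1* 0.035 and *Trib1* -0.15; the covariate *Gata1* 0.0626, *Gata2* 0.0952 and *Cebpe* 0.00951; and leaving out the 4 libraries *Gata1* 0.22, *Gata2* 0.00395 and *Cebpe* 0.16. Leaving out 1 library gave *Zfpm1* -0.14 to 0.0219 and *Trib1* -0.15 to 0.18.

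For *Ahr*-/- against *Ahrr*-/-, the genes called were 828 with the stricter minimum, 994 with no sex term, 626 without the 4 libraries, 328 with the covariate (1 member) and 818 to 2574 when 1 library was left out (2 to 3 members). *Zfpm1* was 0.0389 with median centring and 0.0539 with quantile normalization, which gave *Trib1* -0.00451. The covariate gave *Gata1* -0.11, *Zfpm1* 0.0623, *Spi1* -0.25 and *Trib1* -0.23, and leaving out the 4 libraries *Zfpm1* 0.0308, *Spi1* -0.0414 and *Trib1* -0.066. Leaving out 1 library gave *Zfpm1* -0.0855 to 0.0356 and *Trib1* -0.0925 to 0.21.

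Between the sexes, 163 genes were called with no minimum mean, 1049 without the 4 libraries (4 members), and 142 to 733 when 1 library was left out (1 to 3 members). Voom gave *Gata1* 0.0812 and *Cebpe* 0.10; the covariate *Gata1* 0.15, *Cebpa* -0.11, *Cebpe* 0.0494 and *Xbp1* -0.068; and leaving out the 4 libraries *Gata1* 0.047. Leaving out 1 library gave *Gata1* -0.0989 to 0.0594, *Cebpa* -0.00166 to 0.16, *Cebpe* -0.15 to 0.0381 and *Xbp1* -0.0233 to 0.0943.

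The labels share only a replicate number. With it as a block, 918, 4 and 1946 genes and 1, 0 and 3 members were called in the 3 genotype comparisons, and deviations of libraries with the same number correlated at -0.592 to 0.473, so the numbers were not taken as a pairing.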
